A study of Mus musculus with 4 samples.

Results

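Cd70-positive mature dendritic cells (DCs) were 325 of the 26882 barcodes that passed the cell filter in 4 single-cell RNA libraries of mouse B16-F10 melanoma. They were selected on raw UMIs (unique molecular identifiers, 1 per captured RNA molecule). A member had at least 500 detected genes, at most 10% mitochondrial UMIs, at least 3 Ccr7 UMIs, at least 1 Fscn1 UMI, at least 1 Cd70 UMI and fewer than 5 UMIs of C1qa, C1qb and C1qc together per 10000. The comparison cells were the 995 Cd70-negative mature DCs, which met every other limit and had no Cd70 UMI. Levels of Ccr7, Fscn1, Cd70 and the C1q genes follow from this choice and are given as a description. Procr, Plat and Dll4 were named as markers of these cells from the same data and are also described without a test.

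C57BL/6 mice carried subcutaneous tumors grown from 500000 B16-F10 cells, and adenovirus was injected into the tumor on day 12. Ad-Null was the control virus, labelled NULL. Ad-MEM40 had the treatment label ISF35 (an engineered CD40 ligand), Ad-mIFNB carried mouse interferon beta, and Ad-COMBO was the mixture of ISF35 and mIFNB. The cells were sorted as CD11c+ MHC-II+, and 3 tumors were pooled into the single library of a treatment. Every group, the control included, had received an adenovirus, and differences between libraries have no replicate check. Values are listed with the control first, then Ad-MEM40, then Ad-mIFNB and last Ad-COMBO. The libraries held 80, 171, 30 and 44 Cd70-positive and 342, 482, 117 and 54 Cd70-negative mature DCs, among 8745, 15656, 1810 and 671 passing barcodes.

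CD70 is a ligand of the tumor necrosis factor family that dendritic cells display after CD40 or Toll-like receptor signals, and it engages CD27 on T cells. Mature DCs, marked by the homing receptor CCR7 and the actin-bundling protein fascin, carry antigen to T cells and provide costimulation and cytokines. Interleukin-12 p40, encoded by Il12b, pairs with p35 or p19 to form IL-12 or IL-23, and Ebi3 pairs with p28 to form IL-27. Type I interferon induces genes such as the Ifit family through the factor ISGF3, which binds the interferon-stimulated response element.

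The 2 arms were sequenced to similar depth in each library. Cd70-positive cells had medians of 16130.5, 7676, 12594.5 and 12061 UMIs per cell, and Cd70-negative cells had 15580.5, 8238, 12513 and 10248.5. The Ad-Null and Ad-MEM40 matrices shared 41 passing barcodes, and the other pairs shared between 0 and 8. In Ad-COMBO, 1 Cd70-positive barcode of 94002 UMIs held 13.4% of the summed UMIs of that arm and was called a doublet. It carried 434 of the 438 Lyz2 UMIs, 112 of the 121 Ccl2 UMIs and all 129 Arg1 UMIs of the Ad-COMBO positive cells. Levels and sums of Ad-COMBO include it unless stated otherwise. Ratios without called doublets are given for some of these genes, Lyz2 and Arg1 among them. In Ad-mIFNB the deepest positive barcode held 10.6% of the UMIs.

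The members carried mature DC genes that the rule did not use. Samsn1 was at 1047, 891, 1284 and 1527 CPM (counts for each 1e6 UMIs) and Tbc1d4, a regulator of vesicle traffic, at 1395, 1341, 1573 and 1475 CPM. Cd3e, Cd79a and S100a9 had no UMI in any positive cell, but other members of their lists did. The T or NK cell list summed to 11.8, 10.5, 48.1 and 10.0 CPM and the neutrophil list to 7.46, 10.5, 2.0 and 8.58 CPM. The 7 fibroblast markers had 4 UMIs in all. Other marker lists were not near 0. The endothelial list summed to 43.5, 52.0, 206 and 51.5 CPM. The monocyte list summed to 2935, 2483, 2891 and 2067 CPM and the plasmacytoid DC list to 557, 587, 1266 and 1701 CPM. The macrophage list summed to 274, 385, 184 and 197 CPM. The Ad-COMBO sums include the deep barcode, which held 434 Lyz2 and 133 Plac8 UMIs of the 1446 UMIs of the monocyte list. That barcode also held 44 Apoe and 16 Fcgr1 UMIs of the 138 UMIs of the macrophage list. The B cell list summed to 41.0, 42.7, 176 and 123 CPM, of which Ighm made up 37.3, 38.0, 174 and 94.4 CPM. The part of these transcripts in the results was not tested. Markers of both conventional DC lineages were present, with Xcr1 (cDC1) at 23.6, 16.4, 6.01 and 64.3 CPM and Clec10a (cDC2) at 99.5, 62.6, 10.0 and 18.6 CPM.

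Few members lay just inside the Ccr7 limit, while the C1q limit left out many barcodes. Among the 325 positive cells 139 had exactly 1 Cd70 UMI, 60 had 2 and 126 had 3 or more, with a maximum of 33. Only 9 members had exactly 3 Ccr7 UMIs, and 86 cells with 2 Ccr7 UMIs were left out, 12 of them with Cd70. The C1q limit left out 909 of 2229 barcodes with Ccr7 and Fscn1, and 204 of these had a Cd70 UMI. By library it left out 32.9%, 49.9%, 22.2% and 9.26% of such barcodes, whose median depth was 36042 UMIs in Ad-Null and 18607.5 UMIs in Ad-MEM40.

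Cd70 (chr17:57145997-57149777, GRCm38) was detected in a larger share of mature DCs in Ad-COMBO than in the other libraries. In Ad-Null 80 of 422 cells had a Cd70 UMI, a share of 19.0% (Clopper-Pearson 95% interval 15.3 to 23.0%). In Ad-MEM40 the share was 26.2% of 653 cells (22.9 to 29.7%). In Ad-mIFNB it was 20.4% of 147 cells (14.2 to 27.8%), and in Ad-COMBO 44.9% of 98 cells (34.8 to 55.3%). The intervals cover counting error only. The Ad-COMBO interval lay above the others, while those of the other 3 overlapped. Depth differed between libraries, so each cell was also thinned to 5000 UMIs, and shallower cells were left out, which left 387, 526, 127 and 78 cells. The thinned shares were 7.24% (4.86 to 10.3%), 21.7% (18.2 to 25.4%), 12.6% (7.38 to 19.7%) and 35.9% (25.3 to 47.6%). At this equal depth the interval of Ad-MEM40 lay above that of Ad-Null, and those of Ad-MEM40 and Ad-COMBO touched.

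**Figure D1:**
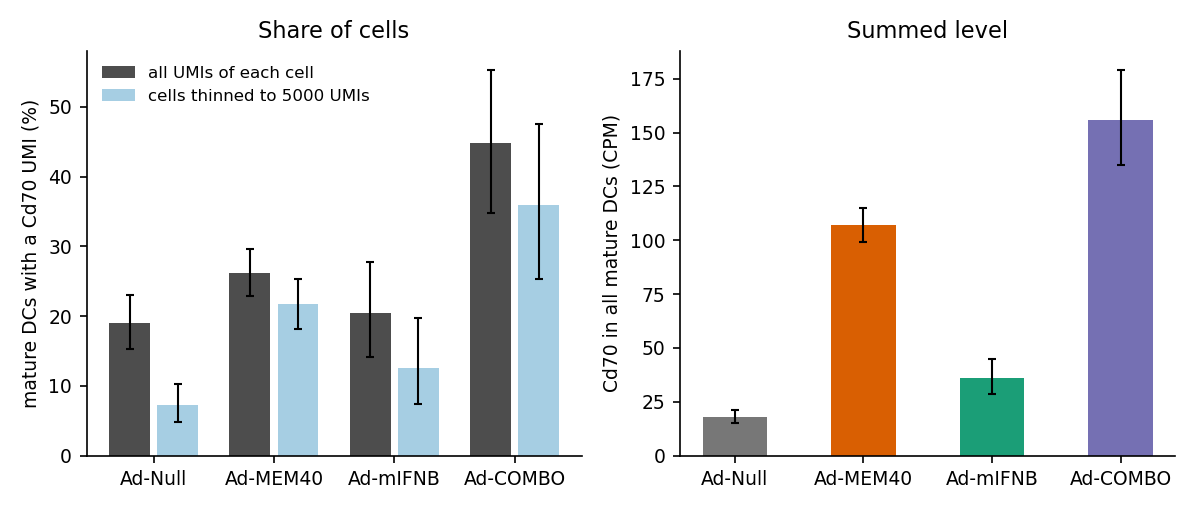
Left, share of mature DCs with a Cd70 UMI in each library (percent), with all UMIs of each cell (dark) and after thinning to 5000 UMIs (light); right, Cd70 level in CPM summed over all mature DCs. Bars are 1 library each, and error bars are 95% Clopper-Pearson or exact Poisson intervals for counting error; Ad-COMBO is highest in both panels, at 44.9% and 156 CPM.

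Summed over all mature DCs, Cd70 was at 18.0 CPM in Ad-Null (150 UMIs, exact Poisson 95% interval 15.2 to 21.1). It was at 107 CPM in Ad-MEM40 (99.2 to 115), 36.2 CPM in Ad-mIFNB (28.6 to 45.1) and 156 CPM in Ad-COMBO (135 to 179). These 4 intervals did not overlap, but they cover counting error only and not the spread between cells. The cell with the most Cd70 UMIs held 8 of 150, 33 of 701, 20 of 78 and 27 of 205. Levels without these cells were not computed, so the gap between Ad-mIFNB and Ad-Null is not settled. Free RNA was measured in cells with at least 20 C1q UMIs per 10000 and no Ccr7 UMI, which should lack Cd70. There the share of cells with a Cd70 UMI was 0.0641%, 0.664%, 0.472% and 0 of 89 cells, at median depths of 16480.5, 10342, 15749.5 and 16357 UMIs. Within the positive cells Cd70 itself was at 93.3, 410, 156 and 293 CPM. Members were 0.915%, 1.09%, 1.66% and 6.56% of all passing barcodes, a share that the CD11c+ MHC-II+ sort can also set.

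Procr, Plat and Dll4 were high in the Cd70-positive cells of the 2 libraries that had received ISF35. Procr, the endothelial protein C receptor, was at 52.2, 548, 40.1 and 309 CPM in positive cells and at 30.4, 64.3, 21.1 and 79.7 CPM in negative cells. Plat, tissue plasminogen activator, was at 11.8, 144, 6.01 and 92.9 CPM in positive cells and at 3.86, 15.5, 4.22 and 19.5 CPM in negative cells. Dll4, a Notch ligand, was at 4.35, 83.6, 16 and 112 CPM in positive cells and at 0.742, 4.75, 4.22 and 17.9 CPM in negative cells.

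The 3 genes thus had 2 levels among the positive cells. In Ad-Null and Ad-mIFNB none exceeded 52.2 CPM, and Plat there rested on 10 and 3 cells with a UMI and Dll4 on 4 and 2 cells. In Ad-MEM40 the UMIs came from 118 of 171 positive cells for Procr, 71 for Plat and 52 for Dll4, and no cell held more than 13.3% of a gene's UMIs. After thinning to 5000 UMIs, Procr was detected in 13.2%, 61.7%, 14.3% and 43.6% of positive cells and in 10.6%, 20.4%, 7.07% and 12.8% of negative cells. C1q-high cells had Procr in 2.79%, 5.0%, 5.11% and 5.71% on the same scale.

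Several other genes of the coagulation and Notch systems were low or even between the arms. Of the coagulation and plasminogen list, F3, Thbd, Serpinb2, Serping1 and Tfpi stayed under 10 CPM in every positive sum. Of the Notch list, Dll1 had no UMI in either arm, Jag1 was at 2.49, 22.8, 2.0 and 27.2 CPM in positive cells, and the receptor Notch2 and the factor Rbpj differed from the negative cells by −0.07 and −0.05 on the log2 scale (adjusted p = 0.97 and 0.96).

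Cd70-positive and Cd70-negative cells were compared in 1 fit over the 8 sums of UMIs (4 libraries, 2 arms). The library was a block because both arms of a library, though separate cells, came from the same tumor pool. The rule's genes and the 3 given markers were left out of the counts. Of 8137 genes tested, 57 were higher (0.701%) and 16 lower (0.197%) in positive cells at an adjusted p under 0.05 (edgeR quasi-likelihood test). The median log2 difference of all tested genes was −0.01. With 4 libraries of 4 treatments as the replicates, these p-values measure the spread of the difference over treatments. Without the library as a block no gene was called, with 382 genes at an unadjusted p under 0.05. Without Ad-MEM40, which gave the most members, the calls fell to 3 genes higher (Il12b, Ebi3 and Cd81) and 1 lower (Dct). Without Ad-mIFNB they were 24 and 10, and without Ad-COMBO 182 and 72, so every call named here other than those of Il12b, Ebi3, Cd81 and Dct was lost when Ad-MEM40 was left out.

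**Figure D2:**
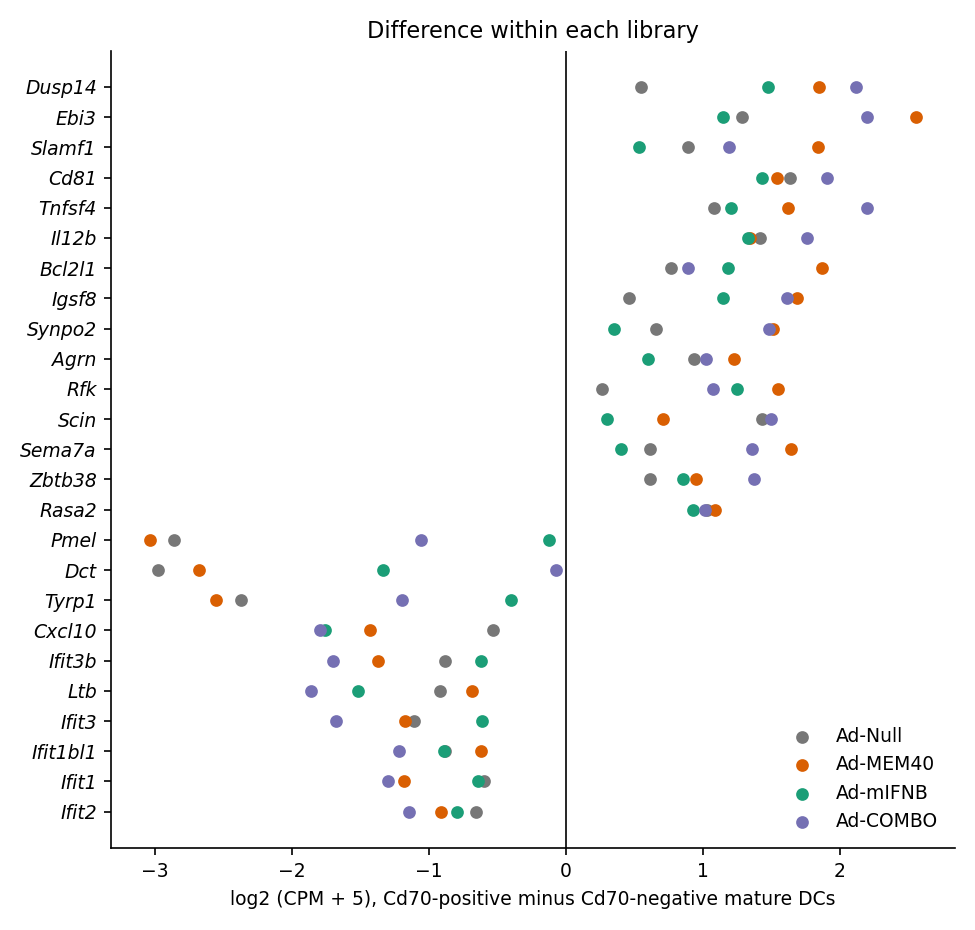
Difference in log2 (CPM + 5) between Cd70-positive and Cd70-negative mature DCs (horizontal axis) for the 15 genes with the highest and 10 with the lowest fitted differences among those called at a mean of 30 CPM in 1 arm (vertical axis). Each point is 1 library; every point of the 15 upper genes lies right of 0 and every point of the 10 lower genes left of it, as the rule for choosing them required.

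Among cytokines the 2 genes that rose were Il12b and Ebi3. Il12b (chr11:44400063-44414033, GRCm38) was at 982, 1729, 1375 and 1430 CPM in positive cells and at 365, 677, 544 and 418 CPM in negative cells. The arms did not overlap, and the log2 difference was 1.46 ± 0.11 (SE, 4 libraries, edgeR adjusted p = 8.33e-06). After thinning, Il12b was detected in 59.2%, 50.3%, 57.1% and 51.3% of positive cells and in 29.3%, 37.9%, 35.4% and 25.6% of negative cells, against at most 2.86% of C1q-high cells. Its p35 partner Il12a had at most 2.34 CPM in any sum.

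Ebi3 (chr17:55952640-55957022, GRCm38) was at 114, 396, 190 and 518 CPM in positive and at 44.1, 63.0, 83.3 and 109 CPM in negative cells. Each positive value exceeded all 4 negative ones, but 114 CPM in Ad-Null lay within the counting interval of the Ad-COMBO negative cells (84.4 to 138 CPM). The log2 difference of Ebi3 was 1.89 ± 0.22 (edgeR adjusted p = 0.0029). Its partner Il27 was at 17.4, 80.7, 32.1 and 226 CPM in positive and at 6.08, 9.71, 36.8 and 29.3 CPM in negative cells, and it did not pass the test (adjusted p = 0.30). Without Ad-mIFNB, where Il27 was slightly lower in positive cells, its log2 difference was 2.55 ± 0.28. This fit is cited because of the Il27 values in Ad-mIFNB, so it is not a test of Il27. Ltb, a lymphotoxin chain, fell by 1.27 on the log2 scale (SE 0.23, adjusted p = 0.017). The other 9 of the 12 cytokine genes tested did not pass. They included Il6, Tnf and Il1b, with adjusted p of 0.18, 0.80 and 0.84. Il6 was at 46.0, 116, 100 and 153 CPM in positive and at 19.7, 20.7, 83.9 and 69.9 CPM in negative cells, higher in each library. Without Ad-mIFNB its log2 difference was 1.65 ± 0.27, which was also chosen by its value and is not a test.

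Of the 12 genes tested in the list of T cell costimulation and adhesion, 4 rose (Tnfsf4, Tnfsf9, Cd80 and Slamf1) and none fell. The list's median log2 difference was 0.50, against −0.01 for all tested genes. Tnfsf4, which encodes OX40 ligand, was at 47.3, 85.4, 76.1 and 32.9 CPM in positive and at 19.7, 24.4, 30.2 and 3.25 CPM in negative cells (log2 difference 1.61 ± 0.20, adjusted p = 0.0013). Every positive value was above every negative value, but by little at the closest pair. The 32.9 CPM of Ad-COMBO came from 7 of 44 positive cells. It lay within the counting interval of the Ad-mIFNB negative cells (22.4 to 39.8 CPM). The Ad-COMBO negative value rested on 2 UMIs. Tnfsf9, which encodes 4-1BB ligand, was at 186, 376, 273 and 430 CPM against 107, 163, 171 and 272 CPM (0.84 ± 0.14, adjusted p = 0.011). It was higher in the positive cells of each library, while the Ad-Null positive cells lay below the Ad-COMBO negative cells.

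Cd80, a ligand of CD28 and CTLA-4, was at 174, 235, 214 and 390 CPM in positive and at 107, 113, 136 and 231 CPM in negative cells (0.79 ± 0.13, adjusted p = 0.0094). Slamf1, a self-ligand of lymphocytes and DCs, had a log2 difference of 1.78 ± 0.28 (adjusted p = 0.0082), but only 1 positive cell of Ad-mIFNB had a UMI. Cd86 and Cd40 were higher by 0.66 and 0.90 and did not pass (adjusted p = 0.086 and 0.15). Cd40, the receptor that ISF35 engages, was at 239, 682, 543 and 442 CPM in positive and at 147, 225, 254 and 395 CPM in negative cells. Cd83, Cd48 and Icosl had differences of −0.09, 0.06 and −0.38 (adjusted p of at least 0.48).

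**Figure D3:**
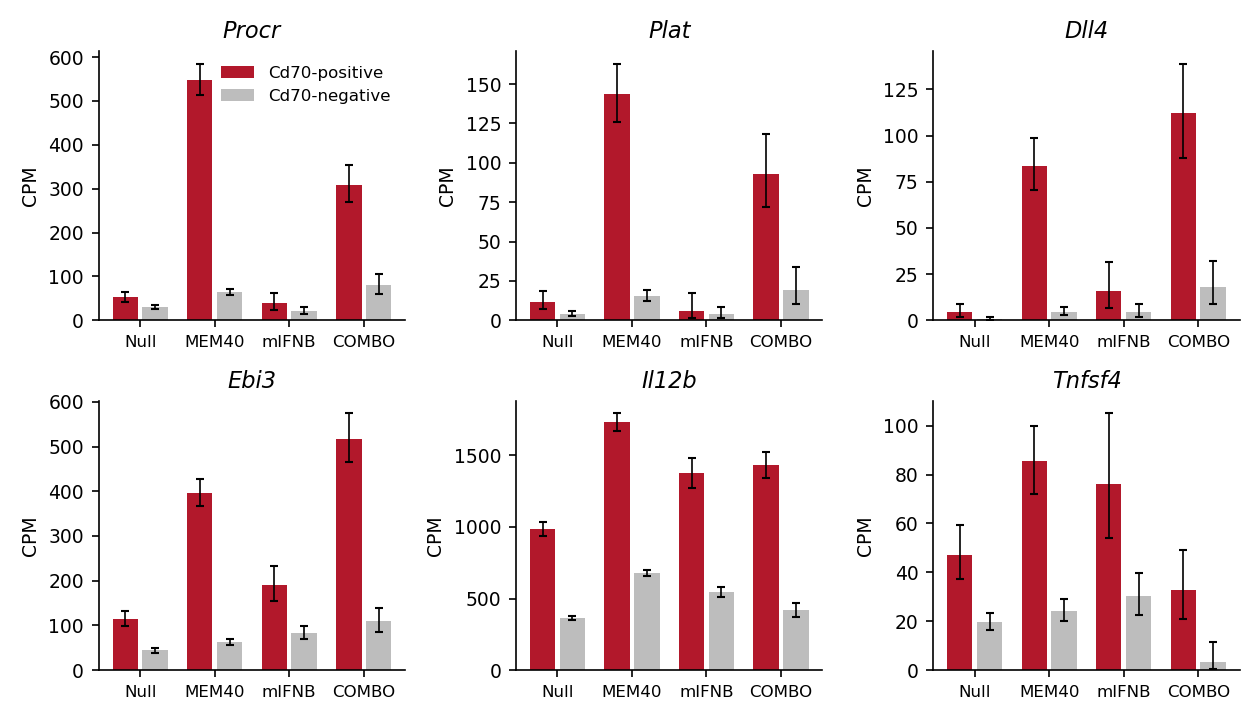
Level in CPM of 6 genes in Cd70-positive (red) and Cd70-negative (grey) mature DCs of each library, with exact Poisson 95% intervals for counting error. Procr, Plat and Dll4 are high in positive cells of MEM40 and COMBO, whereas Il12b and Ebi3 are higher in positive cells of all 4 libraries and Tnfsf4 in COMBO is lower than in the same arm of the other libraries.

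Cd81 was among the surface genes outside that list that rose. This tetraspanin was at 131, 285, 168 and 380 CPM in positive and at 38.6, 94.8, 59.1 and 97.6 CPM in negative cells, so the arms did not overlap (1.69 ± 0.13, adjusted p = 8.33e-06). Its per-library log2 differences lay between 1.43 and 1.91. Igsf8, a partner of Cd81, rose by 1.37 ± 0.22 (adjusted p = 0.0094). C1q-high cells also expressed Cd81, with a UMI in 51.1% to 64.7% of cells.

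Other genes that rose were Btla, Ly75, Il2ra, Alcam and Sema7a. Ly75, the endocytic receptor DEC-205, was at 202, 340, 250 and 332 CPM against 133, 154, 142 and 213 CPM (0.80 ± 0.14, adjusted p = 0.012). Sema7a, a membrane semaphorin, was at 113, 330, 116 and 522 CPM against 71.8, 102, 86.9 and 200 CPM (1.07 ± 0.18, adjusted p = 0.013). Dusp14, a phosphatase, had the largest difference of those 15 genes (1.91 ± 0.26, adjusted p = 0.0025), at 10.6, 63.7, 24.0 and 80.1 CPM against 5.64, 14.1, 5.43 and 14.6 CPM. Bcl2l1, the survival gene for BCL-XL, rose by 1.42 ± 0.22 (adjusted p = 0.0079) and was the only one of 15 tested survival and death genes that passed. The other named genes higher in all 4 libraries were Synpo2, Agrn, Rfk, Scin, Zbtb38 and Rasa2, with log2 differences from 1.05 for Rasa2 to 1.23 for Agrn and 1.26 for Synpo2.

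Inhibitory and regulatory molecules rose in part. Of 16 tested, Cd200, Arg2 and Pvr rose and none fell, with a list median of 0.19. Cd200, an inhibitory ligand, was at 399, 486, 445 and 675 CPM in positive and at 195, 255, 342 and 455 CPM in negative cells (0.73 ± 0.14, adjusted p = 0.024). Arg2, an arginase, was at 24.0 CPM or less in each positive sum. Cd274, which encodes PD-L1, was at 455, 652, 507 and 986 CPM against 371, 491, 524 and 932 CPM and did not pass (adjusted p = 0.74). Of the 21 tested genes of CD40 and NF-kB signaling only Tnfaip2 passed (0.86 ± 0.19, adjusted p = 0.049), and the list median was 0.13.

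No chemokine rose, and Cxcl10 fell. Ccl22 was at 773, 2237, 1120 and 1218 CPM in positive and at 518, 570, 337 and 686 CPM in negative cells, higher in each library, but with an adjusted p of 0.12. Cxcl10, an interferon-induced attractant of CXCR3-bearing T cells, was at 267, 170, 228 and 379 CPM in positive and at 388, 468, 783 and 1328 CPM in negative cells (log2 difference −1.39 ± 0.22, adjusted p = 0.020). The highest positive value lay just below the lowest negative value. In Ad-COMBO, 47.6% of the negative cells' Cxcl10 UMIs were in 1 cell. A Cxcl10 UMI was found in 55.0%, 42.7%, 56.7% and 36.4% of positive cells. In negative cells the shares were 55.0%, 48.5%, 59.8% and 66.7%. The counting intervals of the arms overlapped in Ad-Null, Ad-MEM40 and Ad-mIFNB. In Ad-COMBO they were narrowly apart, at 22.4 to 52.2% and 52.5 to 78.9%. The lower level thus came with a clearly lower share of cells only in Ad-COMBO.

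All 26 tested genes of the type I interferon list had a log2 difference below 0, and 4 of them fell (Ifit1, Ifit2, Ifit3 and Rtp4). The list median was −0.34, against −0.01 for all tested genes. Ifit3, an interferon-induced antiviral gene, was at 36.1, 31.6, 333 and 113 CPM in positive and at 83.7, 77.5, 510 and 372 CPM in negative cells (−1.19 ± 0.19, adjusted p = 0.0094). After thinning to 5000 UMIs, an Ifit3 UMI was found in 11.8%, 9.4%, 42.9% and 20.5% of positive cells. In negative cells the thinned shares were 19.3%, 13.5%, 57.6% and 38.5%. The counting intervals of the arms overlapped in each library, with and without thinning. The lower Ifit3 level thus came without a clearly lower share of cells in any library. Ifit1 was at 42.3, 26.9, 297 and 200 CPM against 66.6, 67.4, 466 and 499 CPM (−0.99 ± 0.17, adjusted p = 0.011). Ifit2 was at 50.4, 45.0, 224 and 267 CPM against 82.1, 88.9, 394 and 597 CPM (−0.94 ± 0.14, adjusted p = 0.0078).

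For Ifit1, Ifit2 and Ifit3 the positive cells were lower within each library, while both arms of the 2 libraries that had received mIFNB were above both arms of the other 2. The whole list summed to 4019, 4370, 9947 and 9919 CPM in positive and to 3941, 4227, 12546 and 16841 CPM in negative cells, so the sum was slightly higher in positive cells of Ad-Null and Ad-MEM40. By the values below, Isg15 alone differed there by more than the sum did. The other list genes together summed lower in positive cells of Ad-Null and Ad-MEM40. Ifit1bl1 and Ifit3b, near relatives whose reads may be shared with other Ifit genes, fell by 1.07 and 1.38. Isg15 did not follow the list: it was higher in positive cells of Ad-Null and Ad-MEM40, at 1260 and 1796 against 934 and 1091 CPM, and lower in Ad-mIFNB and Ad-COMBO, at 2966 and 3159 against 3881 and 5390 CPM (difference −0.01, adjusted p = 1.0).

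**Figure D4:**
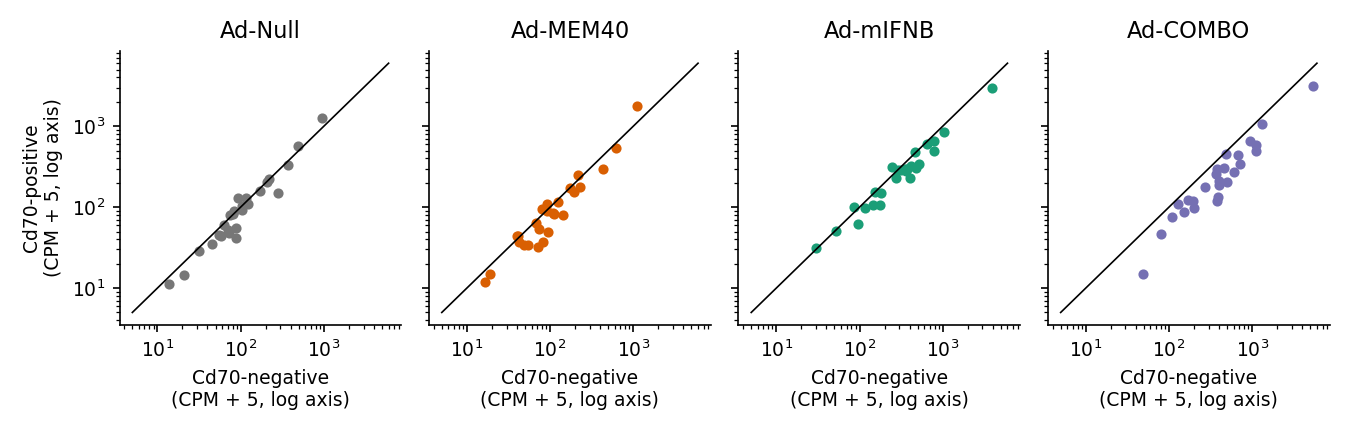
Level (CPM + 5, log axes) of each of 26 type I interferon response genes in Cd70-negative (horizontal) and Cd70-positive (vertical) mature DCs, 1 panel per library, with the line of equal levels. In Ad-COMBO 0 of the 26 genes lie above the line, against 7 in Ad-Null, 7 in Ad-MEM40 and 4 in Ad-mIFNB.

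Promoter sequences are shown for 3 of the genes that fell, because all hold the core of the interferon-stimulated response element. The motif searched was GAAA, any 2 bases and GAAA, on both strands (TTTC, any 2 bases and TTTC on the other), in the 250 bases before to 50 after each RefSeq start site (GRCm38.p6), and the search was chosen after the values were seen. Capitals mark matches, each window is printed 5′ to 3′ on the gene's strand, and its coordinates are given after the sequences.
Ifit1: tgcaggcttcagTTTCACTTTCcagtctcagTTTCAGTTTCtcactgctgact
Ifit3: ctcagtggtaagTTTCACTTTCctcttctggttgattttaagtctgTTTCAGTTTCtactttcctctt
Cxcl10: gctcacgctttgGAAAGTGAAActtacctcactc
The Ifit1 window is chr19:34640773-34640825 on the + strand, the Ifit3 window chr19:34583361-34583428 on the + strand, and the Cxcl10 window chr5:92349081-92349114 on the − strand. The Ifit1 matches begin 104 and 85 bases before the start, the Ifit3 matches 156 and 122 bases, and the Cxcl10 match 213 bases.

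The core was present in 7 of the 13 lower genes that had a promoter entry (53.8%) and in none of 40 higher genes. It was present in 282 of 6481 tested genes (4.35%) and in 1079 of all 27025 genes with an entry (3.99%). On the type I interferon list 12 of 21 genes held it (57.1%). The lower genes with the core were Ifit1bl1, Ifit3, Ifit1, Cxcl10, Ifit3b, Ifi203 and Jaml. A match describes the letters in this window and not a bound site.

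MHC class II genes did not pass the test. Of 12 tested genes 11 had a difference below 0, with a median of −0.37, and none passed. H2-Ab1 was at 4986, 4403, 3362 and 1894 CPM in positive and at 6344, 5182, 4832 and 2551 CPM in negative cells (−0.39, adjusted p = 0.12). Some alternatives called single members lower. They were H2-Ab1 with DESeq2 (−0.40, adjusted p = 0.048), H2-Aa without TMM scaling (−0.45, adjusted p = 0.047) and H2-DMb2 without cells with melanoma transcripts (−0.71, adjusted p = 0.047). With each cell thinned to 5000 UMIs all 3 passed. Against Cd70-negative cells with an Il12b UMI, H2-Ab1 differed by 0.03 (adjusted p = 0.99).

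Of the 14 MHC class I, 16 cell cycle, 17 stress and 19 DC transcription factor genes tested none passed, and neither did any of 14 migration genes, 12 of which had a difference above 0. Batf3 and Irf8 of the cDC1 list differed by 0.19 and 0.48 (adjusted p = 0.72 and 0.084) and Irf4 by 0.78 (adjusted p = 0.13).

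The 3 most strongly lower genes were melanocyte genes of the tumor: Pmel, Dct and Tyrp1. All 3 tested melanoma markers were lower, and the 8 markers of the list summed to 33.6, 79.5, 12.0 and 14.3 CPM in positive and 309, 687, 30.8 and 27.6 CPM in negative cells. In the negative cells of Ad-Null and Ad-MEM40, 92.2% and 91.7% of the UMIs of Dct, Pmel, Mlana, Tyrp1 and Tyr were in 5 cells, with 1711 and 1147 UMIs in 1 cell. Without cells at 5 or more such UMIs per 10000, the log2 difference of Dct was −0.30 (adjusted p = 0.82) and that of Pmel −0.05 (adjusted p = 1.0), while 54 genes were higher and 15 lower. Shares of cells with any melanoma UMI were 33.8%, 32.2%, 10.0% and 6.82% in positive and 33.3%, 38.8%, 9.4% and 22.2% in negative cells. Of the other lineage lists, Ms4a7 (macrophage) and Ltb (cDC2 list) fell. Fn1 (monocyte list) rose, with 51.6% of its Ad-Null positive UMIs in 1 cell. Tcf4, a transcription factor of the plasmacytoid DC list, was at 145, 189, 186 and 214 CPM in positive and at 112, 118, 116 and 99.2 CPM in negative cells (0.68 ± 0.13, adjusted p = 0.023).

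The differences were also read against Cd70-negative cells that had an Il12b UMI, since Il12b and Cd81 had the lowest adjusted p among the higher genes. This comparison and the next were added after the values were seen. Against those cells 20 genes were higher and 4 lower, 13 of them shared with the comparison against all negative cells. Cd81 (0.90 ± 0.14, adjusted p = 0.0064), Dusp14, Sema7a, Cd80 and Tnfsf9 still rose, and Ccl22 passed with a log2 difference of 1.29 ± 0.19 (adjusted p = 0.033). Of the 25 genes plotted for the comparison against all negative cells, 24 could be fitted here. All 24 kept their direction, but only 5 passed: Cd81, Dusp14, Sema7a, Dct and Pmel. Ebi3, Tnfsf4, Slamf1, Bcl2l1 and Igsf8 were not among the genes that passed. The 4 lower genes were the melanoma markers Dct and Pmel, with Gpnmb and Hist1h3c. The interferon differences were small there: −0.16 for Ifit1, −0.24 for Ifit2, −0.26 for Ifit3 and −0.30 for Cxcl10, none of which passed.

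When both arms held only cells with an Il12b UMI, 3 genes were higher and 1 lower. Ebi3 (1.67 ± 0.26, adjusted p = 0.035), Cd81 (1.10 ± 0.17, adjusted p = 0.020) and Il12b itself (0.81 ± 0.10, adjusted p = 0.0030) rose, and the histone gene H2afz fell by 0.56. Plat and Dll4, given without a test, differed there by 2.36 and 2.50 on the log2 scale. These fits held fewer cells, and which part of the change comes from cell number was not tested.

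Several levels differed between cells with 1 Cd70 UMI and cells with 3 or more. The cells with 3 or more numbered 18, 79, 5 and 24, with Ad-mIFNB too small to read. Ebi3 was at 76.3, 176 and 85.3 CPM with 1 Cd70 UMI and at 152, 626 and 700 CPM with 3 or more, in Ad-Null, Ad-MEM40 and Ad-COMBO. Procr was at 29.5, 275 and 65.6 CPM with 1 Cd70 UMI and at 135, 851 and 415 CPM with 3 or more. In Ad-Null and Ad-COMBO the cells with 1 UMI did not exceed the negative cells, which had 30.4 and 79.7 CPM. Il12b did not keep 1 order: it was at 3236 CPM with 1 Cd70 UMI and 962 CPM with 3 or more in Ad-COMBO, and at 668 and 2685 CPM in Ad-MEM40.

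**Figure D5:**
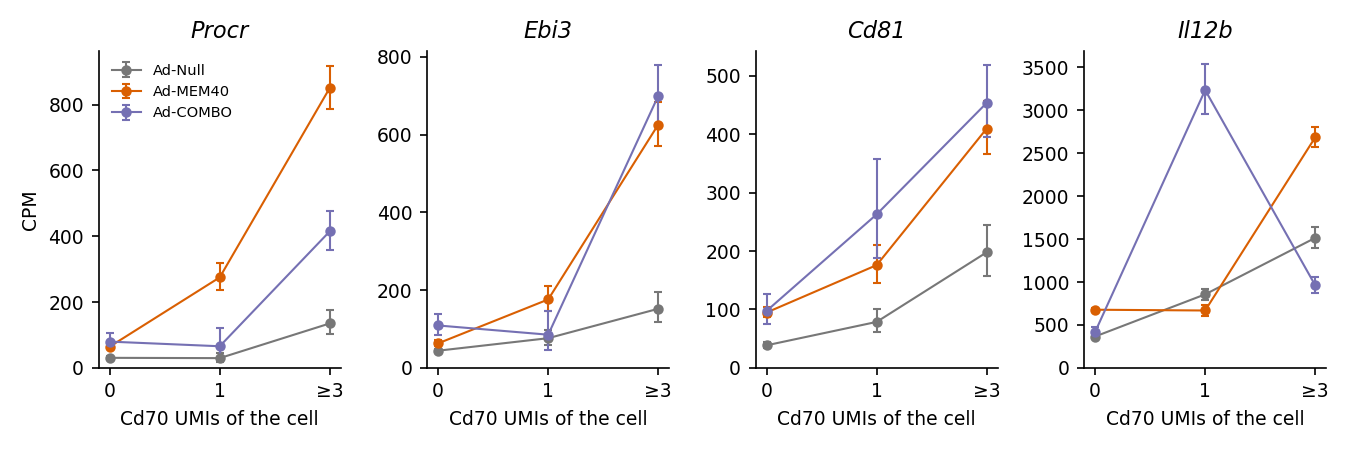
Level in CPM of 4 genes in mature DCs with 0, 1 or at least 3 Cd70 UMIs, in Ad-Null, Ad-MEM40 and Ad-COMBO, with exact Poisson 95% intervals for counting error; Ad-mIFNB, with 5 cells in the last class, is not drawn. Procr, Ebi3 and Cd81 are highest at 3 or more UMIs in each library, and Il12b in Ad-COMBO is highest at 1.

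The Cd70-positive cells of each virus were then set against those of Ad-Null, as levels without a test. Genes at 50 CPM in 1 library and 50 UMIs over both were counted at 1.5-fold. The comparisons share the Ad-Null cells. In Ad-MEM40 164 of 2957 genes were higher (5.55%) and 99 lower (3.35%). In Ad-mIFNB 369 of 3041 were higher (12.1%) and 247 lower (8.12%), and in Ad-COMBO 554 of 3177 were higher (17.4%) and 270 lower (8.5%). The higher shares of Ad-mIFNB and Ad-COMBO come with only 30 and 44 positive cells.

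In Ad-MEM40 the highest ratios were those of Il23a, Cxcl1, Clec4e, Procr, Dll4, Plat, Ptgs2 and Ethe1. Il23a, the p19 chain that joins p40 in IL-23, was at 1.24, 131, 0 and 7.15 CPM in the positive cells of the 4 libraries and at 1.19, 1.45, 3.02 and 1.63 CPM in the negative cells. Its 224 UMIs came from 19 of 171 positive cells, 30.8% of them in 1 cell. Cxcl1, a neutrophil attractant, was at 18.7, 360, 42.1 and 280 CPM in positive and at 23.3, 63.0, 45.3 and 17.9 CPM in negative cells. In Ad-MEM40 it came from 70 positive cells, and in Ad-COMBO from 20.

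A gene under 50 CPM in the reference library enters these counts only if it is high in the other. The list counts that follow are therefore of genes at 50 CPM or more in the reference library, a limit chosen after the values were seen. Of 6 such cytokine genes 5 were higher in the Ad-MEM40 than the Ad-Null positive cells and none lower, against 3.36% of all such genes higher. Il6, Il27, Il15 and Il23a were under 50 CPM in Ad-Null. Of 17 interferon genes Ifi205 was higher and Oas1a lower. The lowest ratio was that of Cd209a, a cDC2 marker, at 146, 38.6, 0 and 0 CPM. A count of 0 allows up to 6.01 CPM in Ad-mIFNB and 4.29 CPM in Ad-COMBO.

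In Ad-mIFNB the interferon list was high in the positive cells. The whole list summed to 9947 against 4019 CPM in Ad-Null. Of 17 list genes at 50 CPM or more in Ad-Null 16 were higher and none lower, with a median log2 ratio of 1.23, and 7.5% of all such genes were higher (median −0.03). Named genes included Ifit3 (333 against 36.1 CPM), Ifit1bl1 (140 against 11.8 CPM) and Ly6c2, which was at 457 against 24.3 CPM but had 47.8% of its UMIs in 1 cell. Lta, a lymphotoxin chain, had the highest ratio, at 222 against 4.97 CPM, with 63.1% of its UMIs in 1 of 8 cells. Lyz2, Fn1 and Mrc1, which monocytes and macrophages express, were at 12.0, 2.0 and 2.0 CPM against 656, 158 and 85.8 CPM in Ad-Null, where 66.1%, 51.6% and 57.2% of their UMIs were in 1 cell.

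In Ad-COMBO the interferon list was high, and so were some of the genes named for Ad-MEM40. Of 17 interferon genes at 50 CPM or more in Ad-Null 13 were higher and none lower (median log2 ratio 1.32), and 10.7% of all such genes were higher. Dll4, Cxcl1, Procr and Plat had the levels given above. Ptgs2 was at 322 CPM, against 36.1 in Ad-Null and 307 in Ad-MEM40. Il23a was at 7.15 CPM against 131 in Ad-MEM40, and Clec4e had 15 of its 16 Ad-COMBO UMIs in the deep barcode. The 12 MHC class II genes summed to 29454, 25667, 23601 and 13807 CPM in positive and to 36854, 31372, 29999 and 19379 CPM in negative cells, with Ad-COMBO lowest in both arms. H2-Aa was at 2206 CPM against 5012 in Ad-Null. Ctsl, a protease gene of the list, was higher, with 124 of its 195 UMIs in the deep barcode. Of 6 cytokine genes at 50 CPM or more in Ad-Null 3 were higher and 1 lower.

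Some of the highest Ad-COMBO ratios were those of single cells. Arg1 and Clec4d came wholly from the deep barcode, and without called doublets their log2 ratios to Ad-Null were −1.34 and −0.5. Hamp had 87.3% and Olfr655 97.5% of its UMIs in 1 cell, and Ly6d came from 2 cells. Dll4 (10 cells, 37.2% of UMIs in 1), Cxcl1 and Ly6c2 kept ratios of 4.24, 4.22 and 3.84 without called doublets.

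Against Ad-MEM40, 467 of 3162 genes were higher in the Ad-COMBO positive cells (14.8%) and 221 lower (6.99%). Of 15 interferon genes at 50 CPM or more in Ad-MEM40 12 were higher and none lower, with a median log2 ratio of 1.17, and 9.09% of all such genes were higher. Among the named genes Ifit1 was at 200 against 26.9 CPM and Sct at 142 against 1.17 CPM, the latter with 74.7% of its UMIs in 1 cell. Il23a was lower, at 7.15 against 131 CPM, and so was Serpinb1a, an inhibitor of neutrophil proteases, at 4.29 against 77.8 CPM.

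Against Ad-mIFNB, 488 of 3127 genes were higher (15.6%) and 251 lower (8.03%). The interferon list was even, with 3 genes higher and 3 lower of 24 at 50 CPM or more in Ad-mIFNB and a median of −0.04. Of all such genes 9.25% were higher and 9.29% lower (median −0.01). Named genes that were higher and spread over cells were Pla1a, a phospholipase (160 against 8.02 CPM, 23 cells), and Ethe1, a mitochondrial enzyme (95.8 against 2.0 CPM, 15 cells). Arg1, Lyz2, Olfr655, Hamp and Hmox1 were also among the 8 highest, each with at least 87.3% of its UMIs in 1 cell, and Lyz2 and Hmox1 had log2 ratios of −0.55 and −0.44 without called doublets. Ccl17, a ligand of CCR4, was lower at 47.2 against 323 CPM, with 62.7% of the Ad-mIFNB UMIs in 1 cell.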

How the data were processed

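Cells of B16-F10 tumors were profiled by 10x single-cell RNA sequencing, with 1 library per treatment. The authors deposited UMI counts per gene and barcode, which are whole numbers and not normalized. The submitters' processing notes name Cell Ranger 3.0, Seurat 4.0 and mm10, and the matrix headers name Cell Ranger 6.0.0, so the version behind the counts is not settled. The libraries held 166077463, 186975859, 29213335 and 10584385 UMIs.

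Members were taken by the stated limits, and raw UMIs were summed per library and arm, giving 8 sums. Both arms of a library were separate cells of the same tumor pool, so the library was the block of the fit and the pairing is part of the design. The sums were tested with edgeR 4.0.16 in R 4.3.3 (robust quasi-likelihood, TMM scaling, filterByExpr, Benjamini-Hochberg adjustment). Between libraries, CPM were compared as log2 ratios with 5 CPM added, at 1.5-fold, for genes at 50 CPM in 1 library and 50 UMIs over both, with no test. Intervals are exact Poisson or Clopper-Pearson at 95% and cover counting error only. The upper limit of a count of 0 was 3 UMIs of the sum. Doublets were scored with Scrublet in scanpy 1.11.5 and kept, and leaving them out was an alternative.

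The genes named were the 15 highest and 10 lowest differences among those past an adjusted p of 0.05, with 1 direction in all 4 libraries and a mean of 30 CPM in 1 arm. For each library comparison they were the 8 highest and 8 lowest ratios. To these were added list members past the test and up to 6 others of each list with the highest level or largest difference. Mitochondrial, ribosomal protein, haemoglobin, immunoglobulin, T cell receptor segment, Xist, Y-linked, Gm and Rik genes and the rule's genes were not named. A few list members are not reported here. The members and lists were chosen with earlier results of these data known. On simulated counts of 8146 genes for the positive against negative comparison, the fit recovered 55.2% of genes changed 1.5-fold, 92.5% at 2-fold and 100% at 4-fold, with 1 false call. The changed genes had a mean of at least 30 CPM and the same change in all 4 libraries. Single cells that hold most of a gene's UMIs were not simulated, so these rates do not cover such genes or lower ones. Of the alternatives 21 were planned and 4 were added after seeing the data. Promoters are from RefSeq (GRCm38.p6) and gene positions from GENCODE, where 32235 of 32285 gene IDs were found.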

Additional observations from a re-analysis of the deposited data

Results flagged for a closer look

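For 11 genes the difference between Cd70-positive and Cd70-negative cells (log2 of CPM with 5 added, counting error only) had opposite signs in a pair of libraries. The difference between libraries was not tested, since each treatment had 1 library. Isg15 was higher in positive cells of Ad-MEM40 by 0.72 and differed by −0.77 in Ad-COMBO. Among chemokines, Ccl2 differed by 2.31 in Ad-COMBO and −1.04 in Ad-mIFNB, Cxcl2 by 1.58 in Ad-COMBO and −1.02 in Ad-mIFNB, and Cxcl9 by 0.93 in Ad-mIFNB, with 94.0% of the positive cells' UMIs in 1 cell, and −0.68 in Ad-COMBO. Lyz2 differed by 5.59 in Ad-COMBO and −2.13 in Ad-mIFNB, Apoe by 2.76 in Ad-COMBO and −1.22 in Ad-MEM40, and Ctsl by 2.27 in Ad-COMBO and −0.66 in Ad-Null. In Ad-COMBO the barcode called a doublet held 434 of 438 Lyz2 UMIs, 112 of 121 Ccl2 UMIs, 44 of 51 Apoe UMIs, 262 of 360 Cxcl2 UMIs and 124 of 195 Ctsl UMIs. The Ad-COMBO differences of these genes include that barcode and are not given without it. The lipid-presenting gene Cd1d1 differed by 0.93 in Ad-mIFNB and −1.81 in Ad-COMBO. Aldh1a2, a retinoic acid enzyme, differed by 1.44 in Ad-mIFNB, with 78.4% of the UMIs in 1 cell, and −1.67 in Ad-COMBO. H2-DMa differed by 0.72 in Ad-COMBO and −0.76 in Ad-mIFNB. The barcode called a doublet held 30 of the 105 H2-DMa UMIs of the Ad-COMBO positive cells, and the difference is not given without it. Kdr differed by 0.63 in Ad-mIFNB and −1.71 in Ad-COMBO.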

How the results depend on the processing

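The 57 higher and 16 lower genes became 158 and 141 with no filter on low counts, 31 and 10 with at least 5 Ccr7 UMIs, and 131 and 142 after thinning to 5000 UMIs. Against negative cells with an Il12b UMI they were 20 and 4, and with an Il12b UMI in both arms 3 and 1. The lower genes were 25 with DESeq2, 44 without called doublets and 35 in cells of 10000 to 20000 UMIs. Without the replicate block, which pairs the arms of a library, edgeR called 0 higher and 0 lower, with 382 genes at an unadjusted p under 0.05, and DESeq2 with the block called 64 higher and 25 lower. Leaving out 1 library gave 3 to 182 higher and 1 to 72 lower genes, the fewest without Ad-MEM40 and the most without Ad-COMBO. Every one of the 25 named genes that could be fitted kept its direction in the 17 alternatives. The alternatives reuse these cells and the genes were chosen for 1 direction in all 4 libraries, so this is no separate check. Those past 0.05 were 0 of 25 without the block and 4 of 23 without Ad-MEM40. They were 5 of 24 against negative cells with an Il12b UMI and 3 of 22 with one in both arms. After thinning, the share of mature DCs with Cd70 was 7.24% in Ad-Null, 21.7% in Ad-MEM40 and 12.6% in Ad-mIFNB. For Ad-MEM40 against Ad-Null the genes higher were 9.56% after thinning, and those lower 5.93% after thinning, 7.76% with at least 2 Cd70 UMIs and 6.56% without called doublets. The genes lower in Ad-mIFNB against Ad-Null were 12.3% at 20 CPM and 20 UMIs and 16.9% with at least 2 Cd70 UMIs. Those lower in Ad-COMBO were 11.4% against Ad-MEM40 after thinning and 12.1% against Ad-mIFNB with TMM-scaled CPM. Without called doublets the log2 ratios of Ad-COMBO turned to −1.34 for Arg1 and −0.5 for Clec4d against Ad-Null, −0.81 and −1.14 against Ad-MEM40, and −0.55 for Lyz2 and −0.44 for Hmox1 against Ad-mIFNB. Thinning turned Clec4d against Ad-MEM40 to −1.05, and the deep barcode held all of its UMIs. For the other changes the cause was not tested. The numbers of positive cells, 30 in Ad-mIFNB and 44 in Ad-COMBO, limit what low genes can show there.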
